A study of Homo sapiens with 4 samples.

Results

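The m7G peaks of human chromosome 19 in HepG2 mRNA are described here. A peak is a stretch of mRNA that the authors called as enriched after immunoprecipitation (IP) with an antibody against N7-methylguanosine. Every peak of the authors' 2 lists that lies on chromosome 19 was taken: 451 of 3355 peaks of IP replicate 1 and 657 of 4747 peaks of IP replicate 2. The 451 peaks lay in 269 genes and the 657 peaks in 348 genes, with 235 genes in both lists and 382 in either. HepG2 is an established hepatocellular carcinoma cell line, and the cells had no treatment. The m7G IP group has 2 samples and the input group has 2 samples, all of poly(A) RNA; the input values were not analysed here. No label states that the IP replicates are separate cultures, so the spread between them may be technical. The lists give no read counts, so depth is unknown. Each peak has the authors' own fold enrichment, a ratio whose libraries and scaling are not stated. Where a pair of values is given without a replicate, replicate 1 comes before replicate 2. All that follows describes peaks that were selected on their p-value and FDR by the authors' calling, and no statistical test was made.

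N7-methylguanosine is the base of the cap that RNA polymerase II transcripts receive at their 5′ end, and the translation factor eIF4E binds it there. It has also been reported within mRNA, where the METTL1 and WDR4 complex is one known writer. Chromosome 19 is known for its density of genes and for clusters of zinc finger genes. Those genes arose by repeated duplication and mostly encode DNA-binding repressors of the KRAB type. Outside the clusters the chromosome carries many broadly expressed genes of transcription, splicing, signalling and protein sorting, together with liver genes such as those for apolipoproteins and complement.

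The start regions of 4 genes are printed first, as examples of 5′-end peaks that cover a listed start. A 5′-end peak is one whose midpoint fell less than 200 nt into the gene's span, or before its start. Each is the RefSeq entry for 250 bases before to 50 after the listed start on GRCh38.p14, written 5′ to 3′ on the gene's strand, with capitals for the bases inside peaks of both lists. AKT2, an insulin-signalling kinase, is at chr19:40285296-40285595 on the minus strand. FOXA3, a forkhead transcription factor of liver, is at chr19:45864076-45864375 on the plus strand. UBE2M, the enzyme that conjugates NEDD8, is at chr19:58558562-58558861 on the minus strand. DCAF15, a substrate receptor of a cullin ubiquitin ligase, is at chr19:13952259-13952558 on the plus strand.
AKT2: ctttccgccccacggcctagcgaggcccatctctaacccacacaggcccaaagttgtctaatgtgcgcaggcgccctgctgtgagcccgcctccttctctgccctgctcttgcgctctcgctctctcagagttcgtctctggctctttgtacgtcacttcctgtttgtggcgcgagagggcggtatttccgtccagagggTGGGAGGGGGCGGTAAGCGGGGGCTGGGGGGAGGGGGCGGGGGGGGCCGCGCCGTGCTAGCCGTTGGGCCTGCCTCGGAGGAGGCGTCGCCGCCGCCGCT
FOXA3: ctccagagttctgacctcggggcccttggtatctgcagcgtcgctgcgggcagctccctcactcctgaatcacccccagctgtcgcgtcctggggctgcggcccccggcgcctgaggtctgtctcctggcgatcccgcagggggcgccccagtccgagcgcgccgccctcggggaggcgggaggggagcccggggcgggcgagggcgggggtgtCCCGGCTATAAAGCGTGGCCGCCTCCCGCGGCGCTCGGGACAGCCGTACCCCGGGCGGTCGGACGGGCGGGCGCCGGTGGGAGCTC
UBE2M: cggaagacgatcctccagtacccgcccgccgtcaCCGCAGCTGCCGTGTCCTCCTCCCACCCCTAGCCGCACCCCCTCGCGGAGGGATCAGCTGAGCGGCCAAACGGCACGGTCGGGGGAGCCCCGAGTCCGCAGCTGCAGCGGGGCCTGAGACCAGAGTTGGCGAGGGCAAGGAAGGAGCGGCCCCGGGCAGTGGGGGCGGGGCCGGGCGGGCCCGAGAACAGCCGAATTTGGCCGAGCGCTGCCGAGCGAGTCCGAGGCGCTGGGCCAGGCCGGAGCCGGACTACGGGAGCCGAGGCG
DCAF15: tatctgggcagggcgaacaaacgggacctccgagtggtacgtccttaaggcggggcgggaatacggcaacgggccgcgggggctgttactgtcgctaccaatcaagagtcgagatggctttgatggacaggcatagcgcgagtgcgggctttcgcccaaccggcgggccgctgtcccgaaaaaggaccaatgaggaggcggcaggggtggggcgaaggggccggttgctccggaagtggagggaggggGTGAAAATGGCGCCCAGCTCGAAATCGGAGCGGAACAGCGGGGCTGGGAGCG
In AKT2 the 100 bases from position -50 to the end of the window were in both peaks, and the authors' folds were 11.3 in replicate 1 and 8.48 in replicate 2. The AKT2 peaks had the same ends in both lists (40265327 to 40285395) and joined 2 blocks across an intron. In FOXA3 the shared bases began at position -36 and covered 86 bases, with folds of 18.5 and 8.43. In UBE2M they began at position -216 and covered 266 bases, with folds of 7.58 and 9.39. The shared bases of DCAF15 began at position -2 and covered 52 bases, with folds of 7.42 and 25.3. These 4 were kept for having at least 50 bases of the window in peaks of both lists, which favours peaks that reach the start. In SH3GL1 and ITPKC, the other genes the ranking gave, the shared bases began at positions 40 and 22 and covered 11 and 29 bases of the window. STRN4 ranked above all of these but has no such RefSeq entry and was passed over. GC content of the 4 windows was 68, 76.3, 74.3 and 65% in that order. The GC box GGGCGG, read as such or as CCGCCC on the other strand, occurred 4, 5, 3 and 1 times in them.

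Chromosome 19 held more peaks than any other chromosome in both lists. Its share of all peaks was 13.4% in replicate 1 (95% Wilson interval 12.3 to 14.6%) and 13.8% in replicate 2 (12.9 to 14.9%), a mean of 13.6% ± 0.281 (SD, n = 2). It carries 7.10% of the protein-coding genes. The chromosome with the next highest number, chromosome 17, had 290 and 420 peaks. Per Mb, chromosome 19 had 7.70 peaks in replicate 1 and 11.2 in replicate 2, against 3.49 and 5.05 on chromosome 17. On both strands peaks were common, with 246 on the plus and 205 on the minus strand in replicate 1, and 372 and 285 in replicate 2. All intervals given here cover counting error only.

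Counted by genes, the excess was smaller and was not particular to chromosome 19. Of its 1410 protein-coding genes, 19.1% had a peak in replicate 1, 24.6% in replicate 2, 16.7% in both and 27.0% in either. On the other chromosomes, of 18456 genes, the shares were 12.1, 15.4, 9.25 and 18.3%. Over all 19866 protein-coding genes of the genome they were 12.6% in replicate 1, 16.1% in replicate 2, 9.78% in both and 18.9% in either. Chromosome 16 had a peak in both lists for 17.4% of its genes, chromosome 22 for 15.3% and chromosome 17 for 14.7%, and the intervals of all 3 overlap that of chromosome 19 (14.8 to 18.7%). The number of peaks in each gene was also higher on chromosome 19. A gene with a peak held 1.68 peaks in replicate 1 and 1.89 in replicate 2, against 1.30 and 1.43 on the others, the highest of 23 chromosomes with peaks in each list. Chromosomes 16, 17 and 22 lay between, with 1.43 and 1.66, 1.39 and 1.53, and 1.45 and 1.63 in that order.

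**Figure D1:**
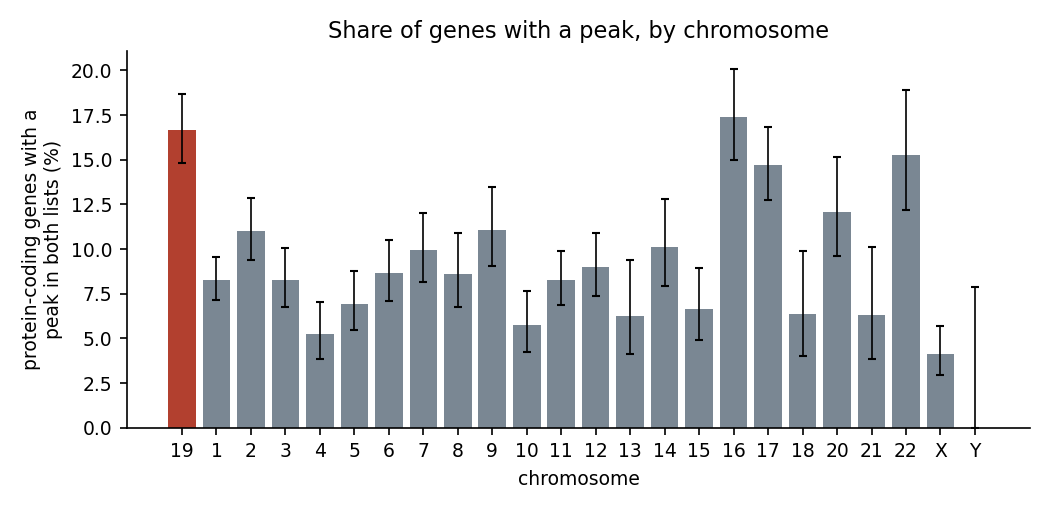
Share of protein-coding genes with a peak in both lists (y axis, %) for each chromosome (x axis), with 95% Wilson intervals; chromosome 19 stands at the left. Chromosome 19 reached 16.7% and chromosome 16 reached 17.4%.

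Along the chromosome the peaks were uneven. In the 5 Mb stretch at the start of the short arm, 66 of 161 protein-coding genes had a peak in both lists (41.0%, 33.7 to 48.7%), against 9.78% of genes over the genome. That stretch alone held 123 of the 451 peaks of replicate 1 (27.3%) and 184 of the 656 placed peaks of replicate 2 (28.0%). The stretch from 45 to 50 Mb was next, with 75 and 118 peaks and 40 of 183 genes in both lists (21.9%). Its genes include BAX, an apoptosis effector, SNRNP70, a subunit of the U1 splicing particle, and SLC1A5, a glutamine transporter. Between 20 and 35 Mb, which spans the centromere, there were only 10 peaks in replicate 1 and 13 in replicate 2. The stretch from 20 to 25 Mb had none in either list, and 31 of its 33 protein-coding genes are zinc finger genes. The stretch from 25 to 30 Mb has 7 protein-coding genes, of which CCNE1, the cyclin of entry into S phase, was the only one with a peak in both lists; C19orf12 had 1 peak in replicate 2 alone (fold 5.27). The CCNE1 peak near the 5′ end had a fold of 4 in replicate 1 and 4.33 in replicate 2.

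A second poor stretch stayed so when its zinc finger genes were left out. From 50 to 55 Mb, 3 of 156 genes had a peak in both lists (1.92%), and 40 of the 156 are zinc finger genes by symbol. Without those 40 the share was 2.59%. ETFB, a subunit of the mitochondrial electron transfer flavoprotein, is one of the 3, with folds of 1.62 in replicate 1 and 1.58 in replicate 2. That stretch carries the kallikreins and many immune receptor genes. With zinc finger genes left out on all chromosomes, 19.7% of the 1145 remaining genes of chromosome 19 had a peak in both lists, against 9.30% on the other chromosomes.

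**Figure D2:**
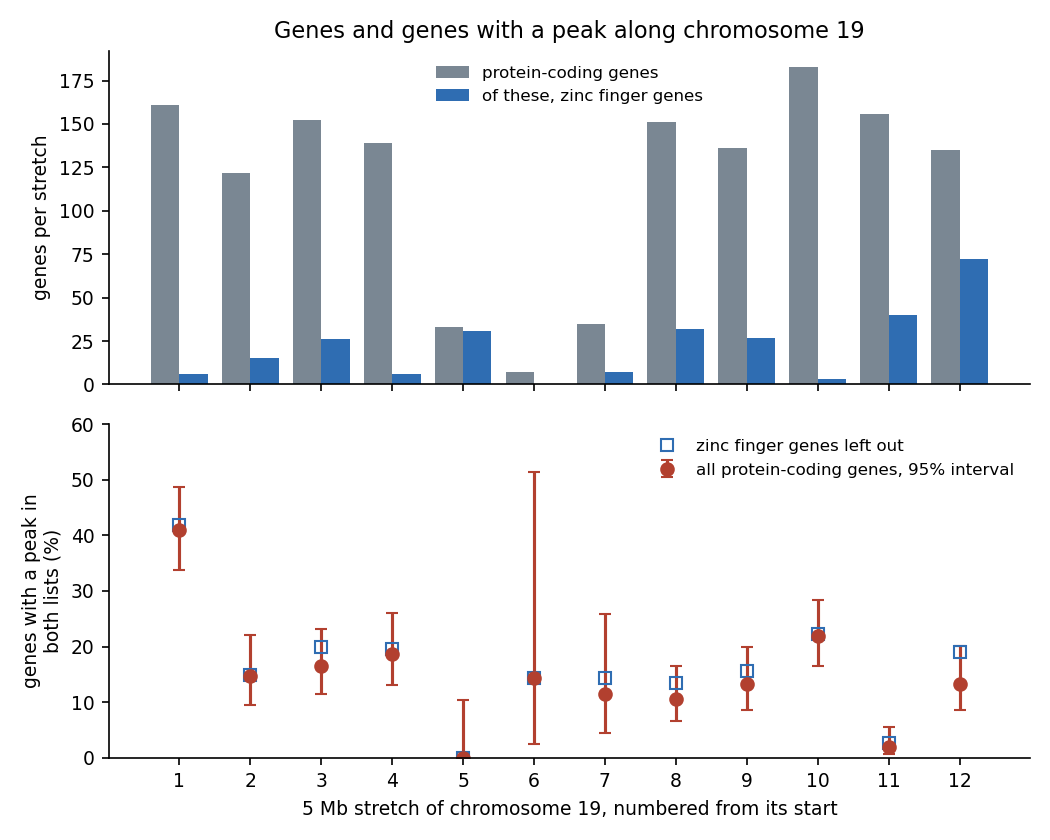
Upper panel, number of protein-coding genes and of zinc finger genes in each 5 Mb stretch of chromosome 19, numbered from the start of the short arm; lower panel, share of protein-coding genes with a peak in both lists (%), with 95% Wilson intervals, and the same without zinc finger genes. Stretch 1 reached 41.0%, stretch 10 reached 21.9%, and stretch 5 had no gene with a peak.

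Genes with peaks lay side by side in several runs. The longest run in which every protein-coding gene had a peak in at least 1 list held 12 genes, from TMEM259 to CIRBP (1009653 to 1274880), with 18 peaks in replicate 1 and 19 in replicate 2. Its members are TMEM259, CNN2, ABCA7, ARHGAP45, POLR2E, GPX4, SBNO2, STK11, CBARP, ATP5F1D, MIDN and CIRBP. GPX4, which detoxifies lipid peroxides, was the one member with a peak in a single list (fold 1.20 in replicate 1). CIRBP, a cold-inducible RNA-binding protein, had overlapping peaks with folds of 3.35 and 4.55. STK11, the LKB1 kinase upstream of AMPK, had folds of 3.33 and 4.10 at its shared peak, and CNN2, an actin-binding calponin, had 2.15 and 3.19.

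The longest run with a peak in both lists for every gene held 6 genes, from SBNO2 to CIRBP, within the run of 12. The next longest held 5 genes each, and one of them ran from TMEM259 to POLR2E. Another joins DAPK3, EEF2, PIAS4, ZBTB7A and MAP2K2, with 13 peaks in replicate 1 and 19 in replicate 2. A further run joins LRG1, SEMA6B, TNFAIP8L1, MYDGF and DPP9, with 9 peaks in each list. A run near the end of the long arm joins ZNF581, ZNF580, CCDC106, U2AF2 and EPN1, with 9 and 11 peaks. In SEMA6B, a semaphorin, replicate 2 had 2 long peaks of 986 and 747 nt close to the 3′ end of the gene, with folds of 4.08 and 6.42. Replicate 1 had 3 peaks over the same region, with folds of 2.80, 3.17 and 6.04. In MYDGF, a secreted growth factor, both lists had a peak at each end of the gene. The MYDGF peaks by the 3′ end had folds of 3.21 and 4.65, and those by the 5′ end 1.87 and 1.52.

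Long rows of neighbouring genes had no peak in either list. From CLDND2 to ZNF813 (51366739 to 53496255) 63 neighbouring genes had none, of which 38 are zinc finger genes. A second gap of 50 genes ended at ZSCAN22 (56864162 to 58342332) and held 42 zinc finger genes. The gap from ZNF101 to PLEKHF1 (19668153 to 29675477) held 43 genes, of which 37 are zinc finger genes, over 10.0 Mb. A gap of 30 genes from SPIB to KLK14 (50418938 to 51084210) held no zinc finger gene and includes the kallikreins. Whether the genes of these gaps were expressed was not analysed here, and a gene without RNA cannot give a peak.

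Zinc finger genes are the largest family of chromosome 19 and carried few peaks. Of 265 genes with a zinc finger symbol, 10 had a peak in replicate 1, 20 in replicate 2, and 10 in both lists (3.77%, against 9.78% of genes over the genome). The share with a peak in either list was 7.55% (4.94 to 11.4%), against 17.6% of the 330 zinc finger genes of other chromosomes. Inside 7 clusters, defined by gene order as at least 10 zinc finger genes with at most 3 other genes between neighbours, 5 of 224 genes had a peak in either list (2.23%, 0.957 to 5.12%). Outside the clusters it was 15 of 41 (36.6%, 23.6 to 51.9%). No zinc finger gene had a peak in 5 of the 7 clusters, which hold 11, 24, 37, 29 and 20 of them.

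The 5 zinc finger genes with a peak inside a cluster often stood at its border. ZNF787 is the first gene of the cluster at the end of the long arm and ZBTB45 is its last, and ZNF331 is the last zinc finger gene of the cluster before it. ZNF787 was the only one of the 5 in both lists. It had 2 peaks in each list with the same ends in both, and the longer one (56087749 to 56088551, 803 nt) had folds of 15.3 in replicate 1 and 18.0 in replicate 2. The ZNF331 peak had a fold of 3.92, the 3 peaks of ZNF444 had folds of 1.91 to 2.19, and the peaks of PEG3, an imprinted gene, and ZBTB45 had folds of 2.41 and 4.74, all in replicate 2 alone.

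Outside the clusters, ZBTB7A, ZNF358, ZNF414, ZNF428, ZNF628, ZNF579, ZNF865, ZNF581 and ZNF580 had peaks in both lists. ZBTB7A, a repressor also known as LRF, had 5 peaks in each. Its unspliced peak at 4047097 to 4047485 had the same ends in both lists and folds of 7.77 and 6.70. In ZNF579, 3 neighbouring peaks were shared, with folds of 13.2, 4.67 and 2.09 in replicate 1 and 9.49, 7.59 and 2.04 in replicate 2. ZNF428 had folds of 8.77 and 7.59. ZNF580 lies within the span of ZNF581 on the same strand, so the gene a peak belongs to is uncertain there. The symbol list also takes in ZFP36, whose zinc fingers bind AU-rich RNA, with 1 peak in replicate 2 alone (fold 3.8).

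Peaks were frequent in lists of regulatory genes. The lists hold genes of chromosome 19 only and were chosen with earlier results of these data known, so their counts are descriptions. They are chosen genes and not complete families, so a share is that of the list alone. Of 32 transcription factors outside the clusters, 13 had a peak in both lists and 20 in either (40.6 and 62.5%, against 9.78 and 18.9% of genes over the genome). Over the 1145 genes of chromosome 19 that are not zinc finger genes, the shares were higher, 19.7% in both and 31.5% in either. The lists that follow can be set against these shares too. NFIX, a nuclear factor I protein, had folds of 7.95 in replicate 1 and 9.94 in replicate 2 at its shared peak. SIX5, a homeobox factor, had 13.8 and 6.96 near its 5′ end, and USF2, an E-box factor, had 7.91 and 6.96. CEBPA, a master factor of liver and fat cells, had lower folds of 2.62 and 3.22. KLF2, RELB and FOSB were among the 12 with no peak.

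Chromatin and RNA polymerase II regulators had a peak in both lists for 17 of 29 genes and in either for 22. HDGFL2, a PWWP-domain chromatin reader, had the highest shared folds of its list, 22.3 in replicate 1 and 25.3 in replicate 2. KDM4B, a histone demethylase, had 11.9 and 13.7. Both values of MBD3, a subunit of the NuRD complex, were lower at 6.05 and 8.13, as were those of DOT1L, the H3K79 methyltransferase, at 4.55 and 4.52. DNMT1, PAF1 and SIRT6 had no peak.

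Of 35 genes of splicing and RNA processing, 16 had a peak in both lists and 23 in either. The spliced HNRNPL peak, which joins 3 blocks of 210 nt in all, had the same ends in both lists and folds of 7.02 and 6.80. It had the smallest p of chromosome 19 in replicate 1 (-log10 p of 198). PTBP1, a pyrimidine-tract repressor of exons, had 6.20 and 7.64. SNRNP70 had 6.16 and 7.49, SYMPK, the scaffold of the cleavage and polyadenylation complex, 6.80 and 6.33, and U2AF2, which recognises the 3′ splice site, 5.71 and 5.81. Differences between the lists were under 1.5-fold in these genes, most of which were named for ranking high in both. Wider gaps in the same list were those of ELAVL1 (9.15 and 4.64), HNRNPM (3.06 and 6.07) and FBL (3.74 and 6.63). SNRPA, SNRPD2 and PRPF31 had no peak.

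Peaks of the translation machinery had low folds. Among 13 cytosolic ribosomal protein genes 4 had a peak in both lists and 6 in either. RPL28 had folds of 1.97 and 1.98, RPL36 1.48 and 1.45, RPS19 1.40 and 1.38, and RPL18 1.24 and 1.25 in replicates 1 and 2. These 4 pairs differed by far less than the genes differed among themselves. EEF2, the elongation factor that moves the ribosome along, had 4 peaks with folds of 1.09 to 1.75 in replicate 1 and 5 peaks with folds of 1.16 to 1.77 in replicate 2, and all were spliced. FARSA, a subunit of the phenylalanine tRNA synthetase, was higher, at 3.07 and 4.03.

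Of 21 listed genes of kinases and kinase subunits, 12 had a peak in both lists and 16 in either. Kinases outside the list include MKNK2, DAPK3, PAK4 and LMTK3 with shared peaks, and MATK, PLK5 and TSSK6 with no peak. MAP2K7, the kinase above JNK, had folds of 9.89 in replicate 1 and 19 in replicate 2. GSK3A, a glycogen synthase kinase, had a peak with the same ends in both lists (42240096 to 42242584) and folds of 6.92 and 8.33. CSNK1G2, a casein kinase, had 4.80 and 4.92 at its 5′-end peak, and INSR, the insulin receptor, 3.21 and 2.48. AXL and DYRK1B had no peak. Of 11 genes of protein phosphatases and their regulators, 4 had a peak in both lists and 7 in either. PPP1R12C, a myosin phosphatase subunit, had folds of 7.42 and 5.34, PTPRS, a receptor phosphatase, 3.59 and 3.39, PPP6R1 3.93 and 3.16, and PPP5C 2.70 and 5.34 at their shared peaks.

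Among 21 ubiquitin and proteasome genes 6 had a peak in both lists and 9 in either. CDC34, a ubiquitin-conjugating enzyme, had a 5′-end peak with folds of 7.35 and 7.66, and FBXO17, an F-box protein, had 2.97 and 6.33. UBE2S, which extends ubiquitin chains for the anaphase-promoting complex, had a 5′-end peak with folds of 2.26 in replicate 1 and 12.7 in replicate 2, a far wider gap than in CDC34. The cell cycle, DNA repair and apoptosis list had 7 of 18 genes in both lists and 11 in either. BBC3 and BAX, both inducers of apoptosis, had 5.56 and 5.62, and 4.24 and 4.22. GADD45B, a stress-induced gene, had 3.71 and 3.41. Of 21 vesicle coat and small GTPase genes, 8 had a peak in both lists and 13 in either. The folds were 6.07 and 5.69 in GIPC1, a cargo adaptor, 2.57 and 2.44 in RAB11B, a recycling GTPase, and 2.42 and 2.09 in KDELR1, which retrieves proteins to the endoplasmic reticulum. DNM2, the dynamin of endocytosis, differed at its 5′-end peak, with 5.30 in replicate 1 and 38.0 in replicate 2.

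Of 19 genes of lipid transport and secreted plasma proteins, 5 had a peak in both lists and 9 in either. The shared folds were 2.93 and 2.99 in LRG1, 2.60 and 2.07 in PLIN3, a lipid-droplet coat protein, 1.43 and 1.53 in GDF15, a stress hormone, and 2.15 and 2.24 in APOE. APOC1 and APOC2, both apolipoproteins, had 1 peak each in replicate 1 alone, with folds of 1.31 and 1.51. PLIN5, another lipid-droplet coat protein, also had 1 peak in replicate 1 alone, with the highest fold of the list, 8.90. ANGPTL4, HAMP and FGF21 were among those with none. A list of 20 genes of mitochondrial respiration and translation had 1 with a peak in both lists and 6 in either. That 1 was ATP5F1D, the delta subunit of the ATP synthase (4.10 and 3.73). The list is not all mitochondrial genes of the chromosome: TOMM40 and ETFB, which are outside it, also had shared peaks. Solute carriers had 2 of 15 in both, SLC1A5 (3.74 and 4.35) and SLC39A3, a zinc transporter (2.80 and 1.88), and 4 in either. The shares were 5 and 30% for the mitochondrial list and 13.3 and 26.7% for solute carriers. For chromosome 19 genes without zinc finger genes they were 19.7 and 31.5%. The shares in both lists were lower than that, whereas those in either list were near it for lists of 20 and 15 genes. No gene had a peak among 70 immune receptor, CEACAM and PSG genes, 20 olfactory receptors, 15 kallikreins and 12 cytochrome P450 genes. In all, 169 of the 381 matched genes with a peak belonged to one of the 18 lists and 212 to none.

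**Figure D3:**
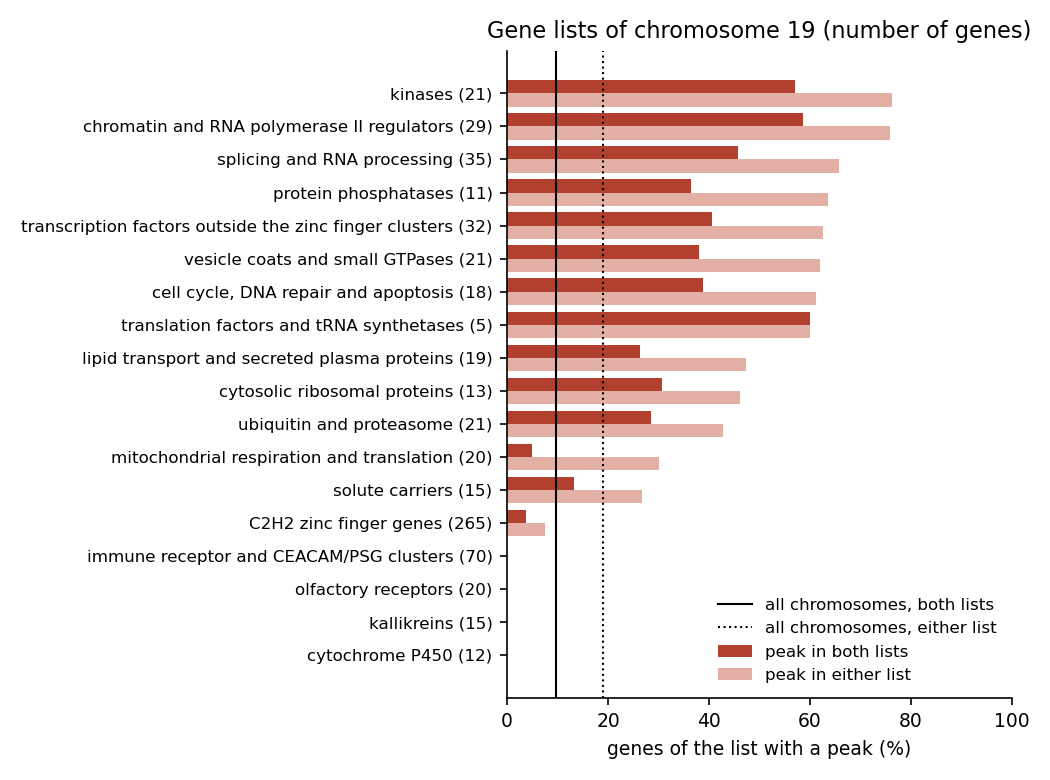
Share of the genes of each chromosome 19 list with a peak in both lists of peaks (dark bars) and in either (light bars), in %, with the number of genes in brackets; vertical lines mark the shares over all protein-coding genes, 9.78% (solid) and 18.9% (dotted). The chosen lists of kinases and chromatin regulators stand highest in either list, and 4 lists are at 0. The shares over chromosome 19 genes without zinc finger genes, 19.7 and 31.5%, are not drawn.

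Ranked by the lower of its 2 ranks by fold, the 15 genes with the best shared peak were HDGFL2, ZNF787, KDM4B, ANO8, STRN4, EID2, SH3GL1, MAP2K7, MKNK2, AKAP8L, ZNF579, TOMM40, MPND, BLOC1S3 and ITPKC. STRN4, a striatin subunit of a phosphatase and kinase complex, had a 271 nt peak at its 5′ end with the same ends in both lists and folds of 20.4 and 12.3. EID2, an inhibitor of differentiation, had 12.0 and 12.3. SH3GL1, an endophilin, had 11.1 and 10.5, and ITPKC, an inositol trisphosphate kinase, 10.2 and 8.86, both at the 5′ end. MKNK2, a kinase of eIF4E, had 11.0 and 9.73 over a peak of 4 blocks, with -log10 p of 141 and 105. AKAP8L, a nuclear anchoring protein, had 9.36 and 11.3 by its 3′ end. TOMM40, the pore of mitochondrial protein import, had 9.48 and 9.49, and MPND had 9.27 and 13.4. The lists were over 2-fold apart in ANO8, a membrane tether, with 11.1 and 56.9, and in BLOC1S3, which acts in lysosome-related organelles, with 8.35 and 17.7.

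Several genes held many peaks. C3, the central complement component, had 7 in replicate 1 and 4 in replicate 2, spread over 42946 nt of gene, with folds of 1.10 to 1.41 and 1.13 to 1.35. All 4 peaks of replicate 2 overlapped one of replicate 1. KLF16, a Krüppel-like factor, had 6 and 4 peaks with median folds of 2.78 and 3.86. NACC1, a BTB-domain corepressor, had 4 and 6, with the highest fold at 10.6 in replicate 1 and 7.48 in replicate 2. SCAF1, which binds the tail of RNA polymerase II, had 3 and 7 peaks and REXO1, an exonuclease homologue, 2 and 6. MARK4, a microtubule-affinity kinase, had 5 and 4, one of them at the 5′ end in both lists. C3 and EEF2 thus had many peaks of low fold, some with small p (-log10 p of up to 81.2 and 108 in EEF2), whereas the highest folds in REXO1 were 16.2 and 7.38 and those in ZBTB7A 8.09 and 6.70.

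Within genes, chromosome 19 peaks lay further from the 5′ end than those of other chromosomes. The 5′-end peaks made up 77 of 451 in replicate 1 (17.1%, 13.9 to 20.8%), against 29.0% on the other chromosomes (27.4 to 30.7%). In replicate 2 it was 72 of 656 (11.0%, 8.81 to 13.6%), against 23.3% (22 to 24.6%). The difference, chromosome 19 minus others, was -12.1 percentage points ± 0.292 (SD, n = 2). In both lists the share was the lowest of 23 chromosomes; among gene-dense chromosomes it was 25.6 and 17% on chromosome 16, 24.5 and 19.3% on 17, and 28.6 and 22.5% on 22. The median relative position, from 0 at the 5′ end to 1 at the 3′ end, was 0.695 and 0.757 on chromosome 19, against 0.209 and 0.394 on the others. Chromosome 19 was the highest of 23 in each list, but gene-dense chromosomes lay much nearer to it than the pooled value. The medians were 0.633 and 0.682 on chromosome 17, 0.557 and 0.67 on 22, and 0.438 and 0.615 on 16. Midpoints in the last 10% of the span made up 35.9 and 36.6% of peaks on chromosome 19, against 24.5 and 25%. The gene-dense chromosomes lay between, with 29.1 and 29.5% on 16, 27.6 and 29.0% on 17, and 29.4 and 27.8% on 22.

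Gene length also differed. The median span of a gene with a peak was 16316 nt in replicate 1 and 17091 nt in replicate 2 on chromosome 19, against 24848 and 26659 nt on the others. On chromosome 16 the median span was 15809 and 16155 nt, shorter than on chromosome 19, beside the higher 5′-end shares given above. Among genes with 1 peak, 24.5 and 13.4% of peaks were at the 5′ end on chromosome 19, against 37.4 and 33.9% on the others, so the lower share was also there without genes of several peaks. Measured from the nearest start in the RefSeq promoter table, the shares within 200 nt were 18.7 and 12.0%, against 32.7 and 25.9%. The part of gene length in the difference was not tested, nor was that of genes with several peaks.

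The peaks of chromosome 19 were longer and more often spliced than those of the other chromosomes pooled, but single chromosomes matched or passed it. The median length was 180 nt in replicate 1 and 179 nt in replicate 2, against 151 nt in both lists on the other chromosomes. Peaks of 2 or more blocks made up 36.4 and 36.7%, against 24.9 and 26.8%, and peaks of 3 or more blocks 12.0 and 10.7%, against 4.86 and 5.35%. Chromosome 6 had the same median lengths, 180 and 179 nt, and chromosome 21 had more peaks of 2 or more blocks, 48.1 and 45.9% of only 27 and 37 peaks. The share of peaks of 3 or more blocks was 8.14 and 9.84% on chromosome 16, 5.52 and 5.24% on 17, and 5.04 and 5.88% on 22. Genes with at least 2 peaks made up 43.9 and 50.3% of the chromosome 19 genes with a peak, against 21.5 and 27.8%. The gene-dense chromosomes lay between, with 27.2 and 36.1% on 16, 27.4 and 32.1% on 17, and 32.9 and 37.4% on 22.

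**Figure D4:**
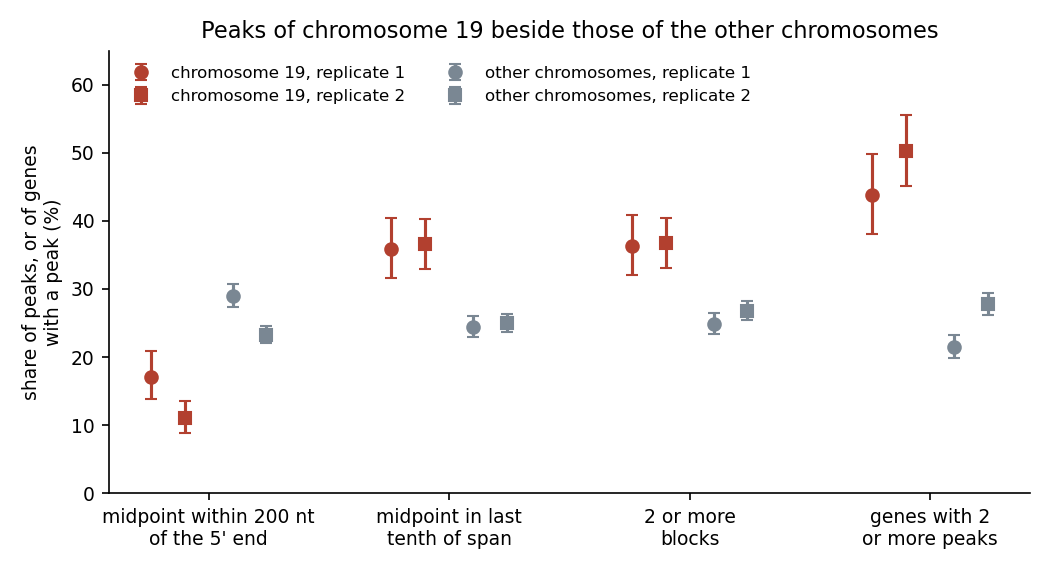
Share (y axis, %) of 5′-end peaks, of peaks with a midpoint in the last 10% of the gene span, of peaks of 2 or more blocks, and of genes with a peak that hold 2 or more; points are the 2 replicates and bars 95% Wilson intervals. In each measure both points of chromosome 19 lie on the same side of both points of the other chromosomes, for example 17.1 and 11.0% against 29.0 and 23.3% at the 5′ end.

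The median fold was 3.33 in replicate 1 and 3.59 in replicate 2 on chromosome 19, against 3.83 and 3.92 on the others, a mean difference of -0.415 ± 0.120 (SD, n = 2). Single chromosomes came close or lay lower, such as chromosome 20 with 3.41 and 3.47. The 5′-end peaks of chromosome 19 had the higher medians of 5.44 and 5.31, against 4.82 and 4.90 for 5′-end peaks elsewhere. Its other peaks had 3.05 and 3.39, against 3.50 and 3.66. Neither contrast held against every gene-dense chromosome in both lists. The 5′-end medians were 5.215 and 5.995 on chromosome 16, 4.95 and 4.68 on 17, and 4.77 and 4.68 on 22. Those of the other peaks were 3.495 and 3.36 on 16, 3.04 and 3.51 on 17, and 3.06 and 3.75 on 22. With the highest fold of each gene in place of all peaks, the difference was -0.045, with chromosome 19 and the others at nearly the same median.

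Between the lists, 316 pairs of chromosome 19 peaks in 210 genes shared at least 50% of the bases of the shorter one on the same strand, and 31 pairs had identical ends. Overlap was found for 72.9% of replicate 1 peaks and 48.9% of replicate 2 peaks, against 63.8 and 44.8% on the other chromosomes. Chromosome 16 had nearly the same shares, 72.5 and 48.7%, and chromosome 2 had 50.7% in replicate 2. The 235 genes in both lists were 87.4% of those of replicate 1 and 67.5% of those of replicate 2. Across the 316 pairs the folds had a Spearman's rho of 0.82, against 0.79 over 1812 pairs elsewhere, as a description across pairs that share libraries and genes. The folds of 75.9% of pairs were within 1.5-fold of each other, and 31 pairs (9.81%) differed by more than 2-fold. Among those, GPI, a glycolytic enzyme, had 37.1 in replicate 1, the highest fold of the chromosome in that list, and 5.75 in replicate 2. In ERF, an ETS-family repressor, 3 peaks of replicate 1 with folds of 15.7, 2.88 and 1.69 lay within a single 1905 nt peak of replicate 2 with a fold of 28.0. There the 2 lists divided the same enriched stretch into peaks differently.

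**Figure D5:**
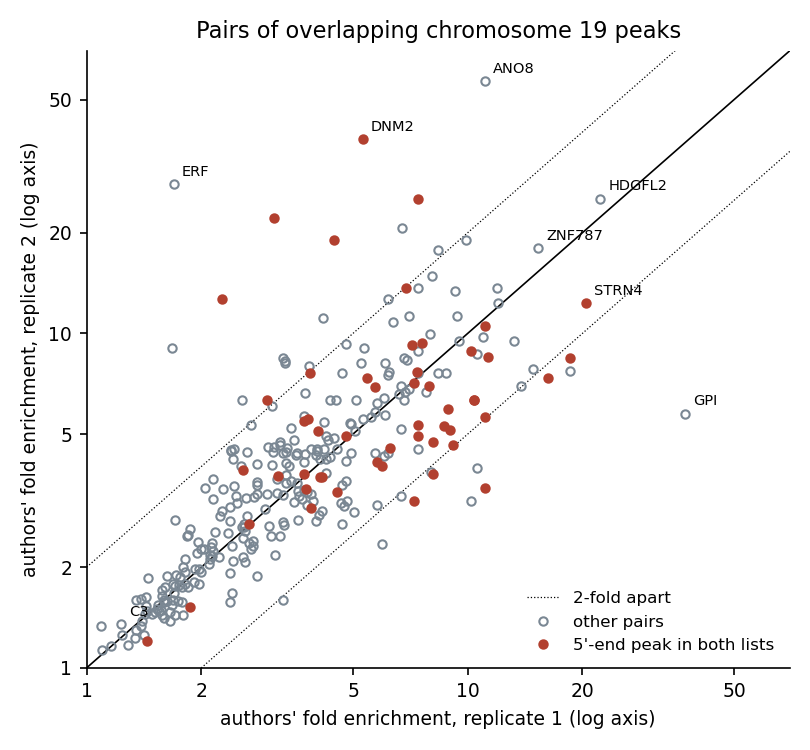
The authors' fold enrichment of 316 pairs of overlapping chromosome 19 peaks, replicate 1 on the x axis and replicate 2 on the y axis, both logarithmic; filled points have a 5′-end peak in both lists, the solid line is equality and the dotted lines are 2-fold apart. Most pairs lie between the dotted lines, and ANO8, DNM2 and ERF lie above and GPI below them.

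At the edge of the lists, the weakest chromosome 19 peaks were those of ATP13A1 in replicate 1 (-log10 FDR of 1.43, fold 4.24) and EPS8L1 in replicate 2 (1.38, fold 15.8). Both whole lists end at 1.32, and stretches beyond the threshold were not analysed here. The lowest folds were 1.09 in EEF2 in replicate 1 and 1.10 in RPS16 in replicate 2. A weak peak could therefore have a high fold, and a well-supported one a low fold. In replicate 2, 1 position was listed under both GDF1 and CERS1, which overlap. Nearly the same stretch could also be listed on both strands. In replicate 1, DOT1L had a plus-strand peak at 2230180 to 2230419 and PLEKHJ1 a minus-strand peak at 2230188 to 2230423. Both had a fold of 3.79, and in replicate 2 the folds there were 3.36 and 3.06. Such near repeats were not counted, so the peak and strand counts may hold more of them.

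The start regions of genes with peaks were rich in GC. Of the 1410 genes, 1185 have an entry in the RefSeq promoter table. Those with a 5′-end peak in both lists had a median GC content of 74.0% and a median of 37 CpG (n = 41), and 95.1% held the GC box named above. Genes with a 5′-end peak in both lists on other chromosomes had 73.0% GC, and 86.8% held the box. Genes of chromosome 19 with a peak in both lists but no 5′-end peak in both had 67.7% GC and 83.8% with the box. Genes of chromosome 19 without a peak had 61.3% GC, 17 CpG and 61.0% with the box, against 58.3% over all 15843 entries. Among zinc finger genes of chromosome 19 the median GC was 66.2% in the 18 with a peak and an entry and 59.3% in the 211 without a peak. A match to the box is a description of the letters in this window and does not show a bound site.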

How the data were processed

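Poly(A) RNA of HepG2 was immunoprecipitated for m7G and sequenced beside input, per the labels' protocols. Per the submitters' processing notes, STAR and the GRCh38 build were used in roles that are not stated. No source used here names the peak caller. The deposited lists, 1 per IP sample, hold the authors' fold (a ratio), p-value, log10 p and log10 FDR scores for each peak, with its place, strand, blocks and gene, per the file headers. Depth is unknown.

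Gene names were matched to RefSeq GRCh38.p14 by symbol (440 and 634 peaks) or older symbol (11 and 22); 1 peak of replicate 2 did not match and was left out of positions. No exon models or genome were used, so distances run along the gene span from the midpoint of a peak's blocks. Starts in the promoter table include several per gene; the outermost was used for composition. Peaks overlapping by 50% of the shorter one were called shared. Coordinates are 1-based. Means are over the 2 IP samples.

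The chromosome, gene lists and measures were chosen with earlier results of these data known. Genes named are the 15 with the best lower rank by fold among shared peaks, the 8 with most peaks, up to 4 per list, and those of the runs and stretches. Genes outside that rule, such as ERF, GPI and those without a peak, were chosen after their values were seen. Of the 6 promoters the ranking gave, with STRN4 passed over for having no entry, the 4 with at least 50 bases in peaks of both lists were printed. The midpoint calculation was checked on simulated peaks, and the Wilson interval for holding its own share. Matching, overlap and the other steps were not checked that way. Python 3.11.15, numpy 2.4.6, pandas 2.3.3 and matplotlib 3.10.9 were used. Alternatives were stricter peak sets, other windows and overlaps, genes in place of peaks, no zinc finger genes and each replicate alone.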

Additional observations from a re-analysis of the deposited data

How the results depend on the processing

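Of 36 alternative values over 6 results, 22 stayed within the spread of the replicates (1 SD), 14 moved beyond it, and none changed sign. The 22 include each replicate alone for every result. With 2 replicates, a single one is always within 1 SD of their mean, so those values could not move. All 14 that moved were among the other alternatives. The share of peaks on chromosome 19 (13.6%) was 15.2% with only the 50% of peaks of smallest p kept, 14.98% for peaks overlapping the other list, 10.8% by genes and 13.2% without zinc finger genes. The share of protein-coding genes with a peak, chromosome 19 minus others, was 8.07 percentage points and 11.8 without zinc finger genes. Overlap between lists (60.9% of peaks) was 23.6% at 80% reciprocal overlap. The 5′-end difference (-12.1 points) was -6.09 with a window of 100 nt, -20.3 with 500 nt, -14.7 for unspliced peaks, -13.4 for overlapping peaks and -12.7 for the smallest p. With 2 alternatives chosen after seeing the data it was -14.0 from the nearest listed start and -16.7 in genes with 1 peak. The difference in median fold (-0.415) was -0.045 with the highest fold of each gene. The cause of these moves was not tested, except that a wider window takes in more peaks by construction.

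Leaving out a replicate gave 13.4 to 13.8% for the share of peaks, 6.97 to 9.17 points for genes, 48.9 to 73.0% for overlap, -12.3 to -11.9 points at the 5′ end, -0.50 to -0.33 for the median fold, and 3.72 to 5.75% zinc finger genes among genes with a peak (mean 4.73%). No paired analysis was possible because input samples had no values here. With 2 samples and no read counts, the lists limit precision, and expression of genes without a peak is unknown.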
